A study of Mus musculus with 4 samples.

Results

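Gamma-delta T cells of the Vγ6 type were examined in single-cell RNA-seq of mouse ascites, the fluid that collects in the peritoneal cavity around a growing ovarian tumor. A barcode was taken as a member when it held 500 to 4800 genes, at most 15% mitochondrial UMIs and at least 3 UMIs in sum of Cd163l1, Trdc, Tcrg-C1, Tcrg-V6 and Trdv4, and when it had 0 UMIs of Cd4 and Cd8b1 and 0 UMIs of Cd79a, C1qa and C1qb. This rule chose 460 of 98560 barcodes past the gene and mitochondrial limits. FVB mice, all female, had been injected intraperitoneally with Br-Luc cells, a luciferase-marked mouse ovarian cancer line, and ascites was collected 6 weeks later. Per the methods, mice of both groups received intraperitoneal injections of a locked nucleic acid (LNA) siRNA in jetPEI, a polyethylenimine carrier. It was a control siRNA in the group labelled siCont and an siRNA against Fxr1 in the group labelled siFXR1-LNA. The mice were a few weeks old when purchased, per the methods. The ascites of several mice was pooled for each library, and each group had 2 libraries. The animal is therefore not the replicate, and p-values measure the spread between pooled libraries.

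Gamma-delta T cells carry a receptor of a γ and a δ chain in place of the α and β chains of CD4 and CD8 T cells. Cells that join the γ segment Vγ6 (Tcrg-V6) to the δ segment Vδ1 (Trdv4) arise in the fetal thymus, settle in the peritoneal cavity, lung, uterus and dermis, and are known as rapid producers of IL-17A in response to IL-1β and IL-23. Their IL-17 type is set by transcription factors that include c-MAF (Maf), PLZF (Zbtb16) and SOX13, and Cd163l1 (SCART1) is a scavenger receptor found on them.

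The germline segments that define these cells are shown because their reads chose the members. Tcrg-V6 (ENSMUSG00000076746) and Tcrg-C1 (ENSMUSG00000076749) lie on chromosome 13, and Trdv4 (ENSMUSG00000076867) and Trdc (ENSMUSG00000104876) lie on chromosome 14. The coding part of each V exon is given from 5′ to 3′ from GENCODE vM21 (GRCm38), for Tcrg-V6 its last 300 bases at chr13:19190630-19190929 on the plus strand and for Trdv4 all 299 bases at chr14:54075217-54075515 on the plus strand. Capitals mark the codon of the conserved cysteine, found by a search for a tyrosine codon, any codon and a cysteine codon, after which rearrangement joins the segment to D or J segments.
Tcrg-V6: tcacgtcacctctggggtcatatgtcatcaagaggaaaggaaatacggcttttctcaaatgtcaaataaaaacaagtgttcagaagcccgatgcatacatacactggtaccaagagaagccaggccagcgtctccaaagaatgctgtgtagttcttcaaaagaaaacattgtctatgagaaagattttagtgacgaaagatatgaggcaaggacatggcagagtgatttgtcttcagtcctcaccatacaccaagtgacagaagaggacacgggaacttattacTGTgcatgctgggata
Trdv4: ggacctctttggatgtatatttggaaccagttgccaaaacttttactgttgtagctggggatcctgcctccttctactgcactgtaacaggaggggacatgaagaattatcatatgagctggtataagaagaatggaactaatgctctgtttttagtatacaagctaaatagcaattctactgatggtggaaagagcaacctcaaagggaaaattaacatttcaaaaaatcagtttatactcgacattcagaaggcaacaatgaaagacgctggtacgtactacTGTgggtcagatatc
Only 13 and 12 germline bases remained after that codon. Over aligned bases the V exon of Tcrg-V6 was 59.7% identical to that of Tcrg-V4, 59.6% to Tcrg-V7, 55.8% to its neighbour Tcrg-V5, 54.5% to Tcrg-V1 and 50.8% to Trgv2.

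The constant segments were far more alike, which bears on Tcrg-C1. Over all coding exons, Tcrg-C1 was 97.4% identical to Tcrg-C2 and 96.8% to Tcrg-C3. The first 120 bases of the first constant exon show this, at chr13:19214103-19214222 (plus strand) for Tcrg-C1, chr13:19307432-19307551 (minus strand) for Tcrg-C2 and chr13:19260885-19261004 (plus strand) for Tcrg-C3. Capitals mark bases that differ from Tcrg-C1, at 2 positions in Tcrg-C2 and 4 in Tcrg-C3.
Tcrg-C1: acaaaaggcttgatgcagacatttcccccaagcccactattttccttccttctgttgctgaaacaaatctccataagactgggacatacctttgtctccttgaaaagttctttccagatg
Tcrg-C2: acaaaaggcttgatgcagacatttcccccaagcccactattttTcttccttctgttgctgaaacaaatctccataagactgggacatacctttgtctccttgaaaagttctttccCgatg
Tcrg-C3: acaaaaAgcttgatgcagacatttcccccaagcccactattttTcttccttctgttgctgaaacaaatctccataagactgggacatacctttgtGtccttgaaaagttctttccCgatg
Counts of Tcrg-C1 and Tcrg-C2 are uncertain for this reason, since a read from a shared stretch cannot be assigned to either.

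The libraries held 78179267 to 113606837 UMIs over 17309 to 54665 barcodes, and hemoglobin genes took 9.11% to 41.1% of the UMIs. The library siFXR1-LNA replicate 1 stood apart, with 53842 barcodes past the limits against 9090 to 20103 in the others. Per the methods, a siFXR1-LNA replicate with fewer reads and fewer cells was left out of the study's own analysis. Which library that was is not stated. As deposited, siFXR1-LNA replicate 2 held 78179267 UMIs over 17309 barcodes, fewer than replicate 1 with 113606837 UMIs over 54665 barcodes. Both are used here, so each siFXR1-LNA value may rest in part on the library left out there. Fxr1 (chr3:34019943-34070322, GRCm38), the target of the siRNA, was at 81.5 and 79.1 CPM in members of the siCont libraries and at 87.4 and 74.8 CPM in those of siFXR1-LNA, from 7 to 37 UMIs. CPM is the number of UMIs of a gene per 1000000 non-hemoglobin UMIs, summed over the cells of a type in a library. Fewer cells that express a gene and less RNA per cell cannot be told apart in such sums. Over all barcodes past the limits Fxr1 was at 77.1 and 62.4 CPM in siCont and 116 and 79.2 CPM in siFXR1-LNA. Since the target was not consistently lower in these sums, each group below is named only by its label. The sums over all barcodes mix cell types. The paper reports lower Fxr1 in epithelial cells of the siFXR1-LNA group and lower FXR1 protein in transfected Br-Luc cells. Neither was examined here. Between 598 and 2882 barcode sequences were shared between pairs of libraries, but no barcode was a member in 2 libraries.

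Members numbered 147 and 90 in siCont replicates 1 and 2 and 35 and 188 in siFXR1-LNA replicates 1 and 2. Their median depth was 1858, 2493, 2379 and 2506.5 UMIs in the same order, and their median sum of the 5 rule genes was 6, 9, 4 and 8 UMIs. Members of siFXR1-LNA replicate 1 thus rested on fewer rule UMIs at a like depth. The CD3 genes, which the rule did not use, checked the label. At least 1 UMI of Cd3d, Cd3e or Cd3g was present in 86.4% and 92.2% of siCont members and in 62.9% and 84.0% of siFXR1-LNA members. The marker Cxcr6, a chemokine receptor of tissue-resident lymphocytes that the rule also did not use, was present in 75.9% of members against 0.827% of B cells. The share with CD3 was lowest in siFXR1-LNA replicate 1, where 22 of 35 members had such a UMI. Some results that rest on that library are therefore also given without it. B cells, taken as barcodes with at least 3 UMIs of Cd79a, Cd79b and Ms4a1 and none of the CD3 or rule genes, served as a gauge of free RNA. Unlike members, B cells were not required to lack C1qa and C1qb, which were present in 27.0% and 32.4% of them. Lyz2, a gene on the macrophage list, was at a mean of 2416 CPM in B cells and 728 CPM in members. The part of macrophage RNA in the B cell levels was not tested. The median depth of B cells was 2387 to 2953.5 UMIs.

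Just inside the threshold, the 61 members with a rule sum of 3 held a CD3 UMI in 62.3% and a Cxcr6 UMI in 42.6%. Just outside it, the 82 barcodes with a sum of 2 that met the other criteria held CD3 in 39.0% and Cxcr6 in 34.1%.

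The rule genes themselves were used to choose the cells and are given as a description. The scavenger receptor gene Cd163l1 was present in 88.9% of members, the δ variable segment Trdv4 in 79.3%, the γ variable segment Tcrg-V6 in 66.3%, the δ constant gene Trdc in 45.4% and the γ constant gene Tcrg-C1 in 42.4%. Trdv4 or Tcrg-V6 was found in 416 of 460 members (90.4%) and both together in 254 (55.2%). In siFXR1-LNA replicate 1 only 4 of 35 members held both, and Tcrg-V6 was at 125 CPM there against 675 to 722 CPM in the other 3 libraries. All 5 genes were seen in 66 members, 436 had at least 2 of them, and 17 had only Cd163l1. A missing UMI at this depth does not show that a segment was not expressed.

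**Figure D1:**
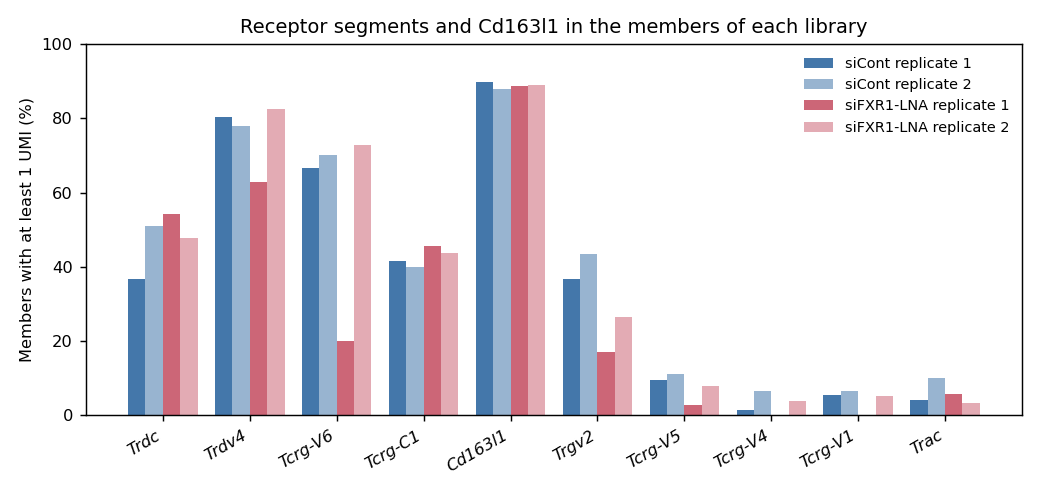
Share of members with at least 1 UMI of each receptor segment or Cd163l1 (y axis, %), by library (bars, 2 per group). Cd163l1 stood near 89% in each library, while Tcrg-V6 was seen in 20.0% of members of siFXR1-LNA replicate 1 and in 66.7% to 72.9% elsewhere.

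Other γ and δ segments were rarer, apart from Trgv2. Of the 12 other segments listed, 10 were detected. Trgv2 was present in 32.4% of members, at 326 and 307 CPM in siCont and 87.4 and 164 CPM in siFXR1-LNA, and in 0.0919% of B cells. The γ constant genes Tcrg-C4 and Tcrg-C2 were present in 16.5% and 11.5% of members and Tcrg-V5 in 8.70%. Any γ variable segment other than Tcrg-V6 was seen in 197 members (42.8%), but only 17 (3.70%) had such a segment with neither Tcrg-V6 nor Trdv4. A δ variable segment other than Trdv4 was seen in 21 members (4.57%). Of the α and β chain genes, the constant gene Trbc2 was present in 30.9% of members and Trac in 5.00%. Trbc2 stood at 126, 317, 149.8 and 200.1 CPM in the 4 libraries, beside 180.3 to 414 CPM in CD4 T cells. Levels of Cd5, Cd28 and Cd6, surface receptors of most αβ T cells, rested on 10, 4 and 4 UMIs over all members.

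Members held most genes of IL-17-type lymphocytes at levels above those of CD4 and CD8 T cells. CD4 T cells (634 barcodes) and CD8 T cells (580) were barcodes with a CD3 UMI, Cd4 or Cd8b1 but not both, and a rule sum under 3. Because members were chosen by their RNA, these contrasts are a description with no test. At least 1 of Tbx21, Eomes, Ifng, Cd27, Gzma, Gzmb and Prf1, genes of the interferon-γ type, was seen in 57 (12.4%).

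Among 12 listed transcription factors, all were detected. Id2, which restrains E proteins, was at 550.3, 658, 624 and 766 CPM in the 4 libraries. Rora, a nuclear receptor, stood at 359, 712, 899 and 443 CPM, above the highest CD4 T cell library at 187 CPM. Ikzf2, which encodes Helios, was at 391, 475, 112 and 435 CPM. The kinase gene Blk was at 342, 346, 112 and 352 CPM, and was at 0 to 18.0 CPM in CD4 T cells but at 113 to 171 CPM in B cells, which also express it. Zbtb16 stood at 171, 302, 249.7 and 164 CPM against 0 to 18.0 CPM in CD4 T cells. Sox13 was at 122, 129, 37.5 and 115 CPM with at most 3.03 CPM in any CD4 or CD8 library. Each library of members exceeded each CD4 and CD8 library for Zbtb16, Rora and Sox13. Not all genes of the list were higher in members. Batf, Gata3 and Sox4 had means of 32.8, 36.2 and 43.8 CPM in members and 63.0, 44.4 and 49.8 CPM in CD4 T cells.

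The receptors that relay IL-17-inducing cytokines were also high in members. The IL-23 receptor gene Il23r was at 151, 257, 449.5 and 115 CPM in members, at 0 to 4.15 CPM in CD4 T cells and at 0 in each CD8 library. The IL-1 receptor gene Il1r1 was at 192, 331, 512 and 289 CPM against at most 7.76 CPM in CD4 and CD8 T cells. The IL-18 receptor gene Il18r1 stood at 440.3, 697, 237 and 394 CPM, where the lowest member library lay just under the highest CD4 library (241 CPM). Cxcr6 was at 1052, 846, 349.6 and 970.3 CPM, above all CD4 libraries (18.0 to 167 CPM). Il7r, the receptor of a survival cytokine of all naive and memory T cells, was at 325 to 683 CPM in members and 577 to 804 CPM in CD4 T cells, with overlap. Ccr6, a chemokine receptor of many IL-17 producers, gave 1 UMI over all members, which is under the limit of 3 counts that a count of 0 allows. Of 15 genes on a signature list of IL-17-type gamma-delta cells, all were detected, among them the membrane protein genes Tmem176b (812 to 1399.7 CPM) and Tmem176a (425 to 885 CPM).

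**Figure D2:**
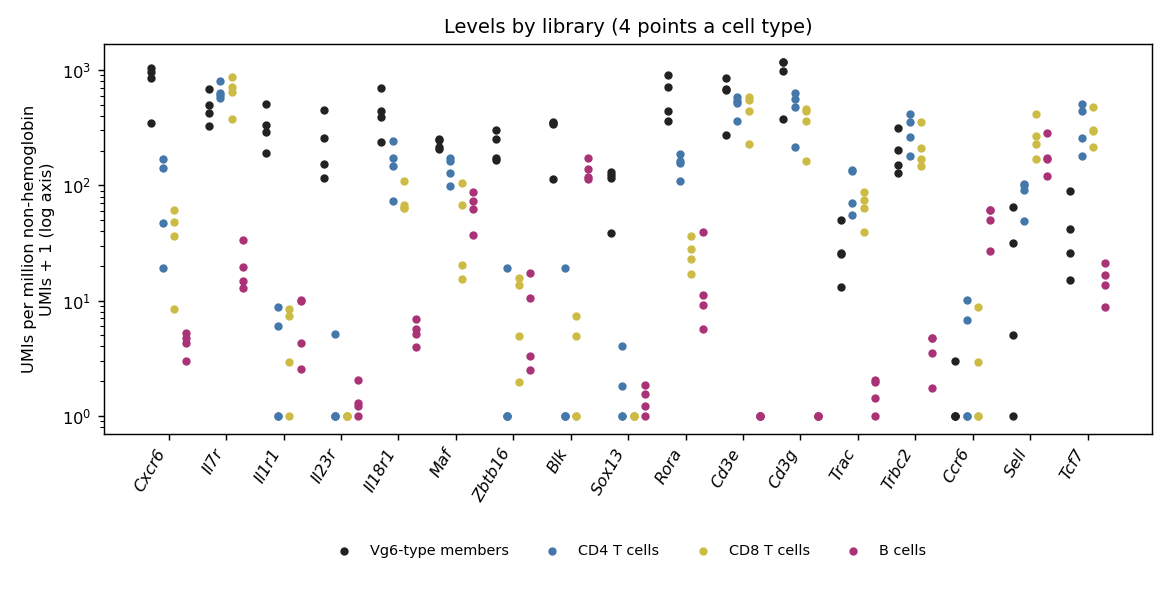
CPM plus 1 (y axis, log scale) of 17 genes in members, CD4 T, CD8 T and B cells, 1 point per library and cell type. Il23r, Il1r1, Zbtb16 and Sox13 stood in all 4 member libraries above each point of the other cell types, while Il7r and Trbc2 overlapped with CD4 T cells.

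The genes outside the rule with the highest ratio of mean CPM in members to the higher mean of CD4 and CD8 T cells, among those detected in at least 10% of members, included Tdrd9, Gm31887, Cdh10 and Psd2. These had 84, 55, 123 and 81 UMIs in members and 0 UMIs in CD4 and CD8 T cells. Against a floor of 3 counts over each cell type, they were at least 47.1-, 30.8-, 68.9- and 45.4-fold higher. Abi3bp, an extracellular matrix gene, followed with 354 UMIs in 40.7% of members and 1 UMI in CD4 and CD8 T cells together. Clnk, an adaptor of immune receptor signaling, was present in 59.3% of members (667 UMIs) with 13 UMIs in CD4 and CD8 T cells, and Adam12, a metalloprotease, in 48.0% (487 UMIs) with 15. The others of the 15 were Il23r, Ablim3, Ppp1r14c, Sox13, Gm9961, Ly6g5b, Il1r1 and Kcnk1. Abi3bp stood at 424, 499.6, 125 and 281 CPM in the 4 libraries, and Clnk at 603, 846, 574 and 610.5 CPM. Both were present in each library.

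Few cytokine transcripts were captured. Of 19 effector cytokine genes 13 were detected. The lymphotoxin gene Ltb led with 754, 796, 187 and 558 CPM, but stood at 186 to 578 CPM in B cells. Tnf was at 130.5, 173, 12.5 and 78.8 CPM, and B cells ranged from 2.99 to 14.9 CPM, above which 3 of the 4 member libraries lay. Il17f, Areg, Il10, Il13, Il21 and Ccl20 were at 0 UMIs, and Il22 had 2 UMIs.

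How frequent these cells were was compared between groups. Members made up 0.731% (95% exact binomial interval 0.618 to 0.859%) and 0.990% (0.797 to 1.22%) of barcodes past the limits in siCont replicates 1 and 2. In siFXR1-LNA they made up 0.0650% (0.0453 to 0.0904%) and 1.21% (1.05 to 1.40%), so the group held both the lowest and the highest share. The mean was 0.861 ± 0.183% in siCont and 0.638 ± 0.810% in siFXR1-LNA (SD, n = 2 libraries each; two-sided exact permutation test, p = 1, where 0.333 is the smallest p that 2 against 2 libraries allow). The intervals cover counting error only. After thinning each barcode to 1000 UMIs, 0 to 7 members per library were too shallow, and 124, 74, 19 and 183 barcodes met the rule, against 147, 90, 35 and 188 before. The shares were then 0.638%, 0.845%, 0.0354% and 1.23% (exact permutation p = 1). Among T-lineage barcodes, those past the limits with a CD3 UMI or of the rule and with no Cd79a, C1qa or C1qb, the shares were 14.4% and 5.78% in siCont and 5.98% and 28.5% in siFXR1-LNA (exact permutation p = 0.667). Without siFXR1-LNA replicate 1, which held 53842 of the barcodes, the difference in the first share changed from -0.223 to 0.350 percentage points. The difference between groups was smaller than the spread between the siFXR1-LNA libraries.

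**Figure D3:**
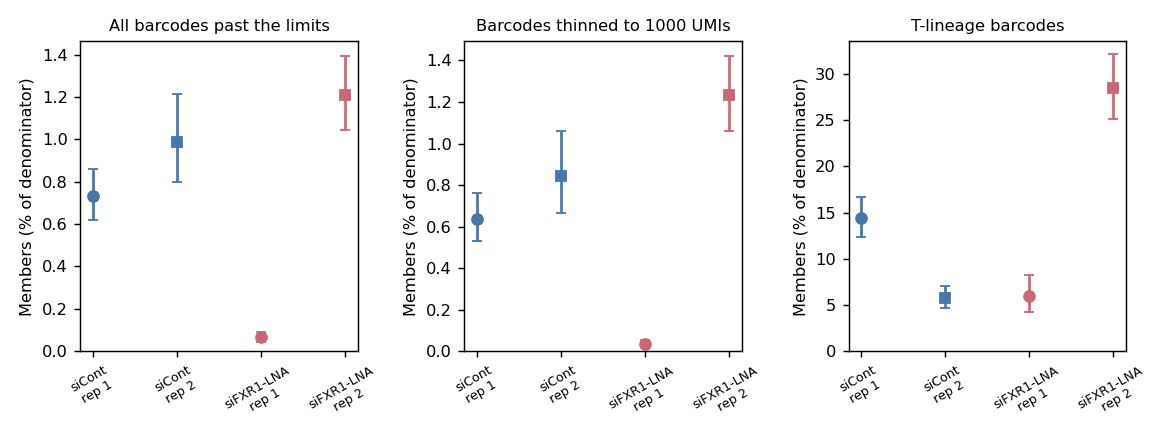
Members as a share (y axis, %) of all barcodes past the limits, of barcodes thinned to 1000 UMIs and of T-lineage barcodes, 1 point per library with its 95% exact binomial interval. The 2 siFXR1-LNA libraries lay farther apart than the 2 siCont libraries in each panel, at 0.0650% and 1.21% in the first.

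Gene expression of the members was then compared between groups over the summed counts of each library. Of 4678 genes tested, 66 (1.41%) passed edgeR's quasi-likelihood test at an adjusted p of 0.05, of which 41 (0.876%) were higher and 25 (0.534%) were lower in siFXR1-LNA. The sums held 245302 and 202181 non-hemoglobin UMIs in siCont and 80088 and 494701 in siFXR1-LNA. The level of each gene in B cells of the same libraries is set beside that in members. In the group where the gene was higher, B cells were at 50% or more of the member level for 38 of the 41 genes that rose and for 23 of the 25 that fell. The share over all 4678 genes tested was not computed, so these counts do not set the called genes apart from other genes. Only Il17a, Ctla4 and Dgat1 among those that rose, and Ms4a4b and Nkg7 among those that fell, were at under 10% of the member level in B cells.

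Il17a (chr1:20730905-20734496, GRCm38), the effector cytokine of this lineage, was at 4.08 and 4.95 CPM in siCont members and at 125 and 66.7 CPM in siFXR1-LNA members. Both siFXR1-LNA libraries lay above both siCont libraries, as held for each of the 41 genes that rose. The share of all tested genes with such a separation was not computed. These levels rested on 1 and 1 UMIs in siCont and on 10 and 33 UMIs in siFXR1-LNA, found in 1, 1, 5 and 7 cells, with up to 16 UMIs in 1 cell. The ratio of counts was 16.7 (exact 95% interval 4.36 to 143, counting error only), and the edgeR log2 fold change was 4.13 ± 0.82 (SE, adjusted p = 0.0151). Here and below, this SE is the absolute log2 fold change divided by the square root of the test's F statistic. It is not a fitted SE and is approximate where a group has few counts. All 14 cells with Il17a also held Trdv4 or Tcrg-V6, and 8 held Il23r. Trdv4 and Tcrg-V6 are rule genes, and 90.4% of all members held 1 or both, so this gives no separate support. Il23r was present in 24.1% of all members. Il17a had 0 UMIs in CD4 and CD8 T cells, and B cells were at 0.387% of the member level. Without siFXR1-LNA replicate 1 the adjusted p was 0.0850. In such a fit 1 group is a single library, which is assumed to vary like the libraries of the other group.

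Ctla4 (chr1:60887000-60915832), an inhibitory receptor that competes with CD28 for its ligands, was at 0 and 19.8 CPM in siCont and 587 and 247 CPM in siFXR1-LNA, from 0, 4, 47 and 122 UMIs in 0, 3, 17 and 35 cells. The 2 groups did not overlap, as held for each of the 41 genes that rose. The log2 fold change was 5.45 ± 0.78 (edgeR, SE, adjusted p = 0.00127). B cells stood at 5.33 to 14.0 CPM in the 4 libraries. With DESeq2 the adjusted p was 0.0990, and among members without a UMI of S100a8, S100a9 or Ms4a1 the edgeR adjusted p was 0.0579. The other checkpoint and costimulation receptors did not pass. Icos was at 97.8, 89.0, 237 and 220.3 CPM and Pdcd1, which encodes PD-1, at 69.3, 39.6, 175 and 123 CPM (edgeR adjusted p = 0.215 and 0.230). Of 12 receptors on this list 4 were tested, with a median log2 fold change of 1.37 beside -0.02 over all genes tested.

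Dgat1 (chr15:76502015-76511953), which makes triglyceride from diacylglycerol, was at 53.0 and 79.1 CPM in siCont and at 724 and 200.1 CPM in siFXR1-LNA. The log2 fold change was 2.80 ± 0.60 (edgeR, SE, adjusted p = 0.0222), and B cells were at 10.1 to 21.5 CPM. Without siFXR1-LNA replicate 1 the adjusted p was 0.0812, and the call was also lost at a rule sum of at least 5 UMIs (0.0530) and among members without S100a8, S100a9 or Ms4a1 (0.182).

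Ms4a4b (chr19:11443553-11467055), a membrane protein of T cells, was at 188 and 485 CPM in siCont and 37.5 and 24.3 CPM in siFXR1-LNA, from 46, 98, 3 and 12 UMIs. The log2 fold change was -3.53 ± 0.60 (edgeR, SE, adjusted p = 0.00462). The call remained past the threshold in all 14 alternatives tried, of which 1 was identical to the main fit. Nkg7, a cytotoxic granule gene, was at 61.1, 366, 0 and 18.2 CPM, with up to 25 of 74 UMIs of siCont replicate 2 in 1 cell. Its log2 fold change was -3.72 ± 0.81 (edgeR, SE, adjusted p = 0.0242), but without siCont replicate 2 the adjusted p was 0.725. The call was also lost with DESeq2 (0.577) and at a rule sum of at least 5 UMIs (edgeR, 0.0657).

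**Figure D4:**
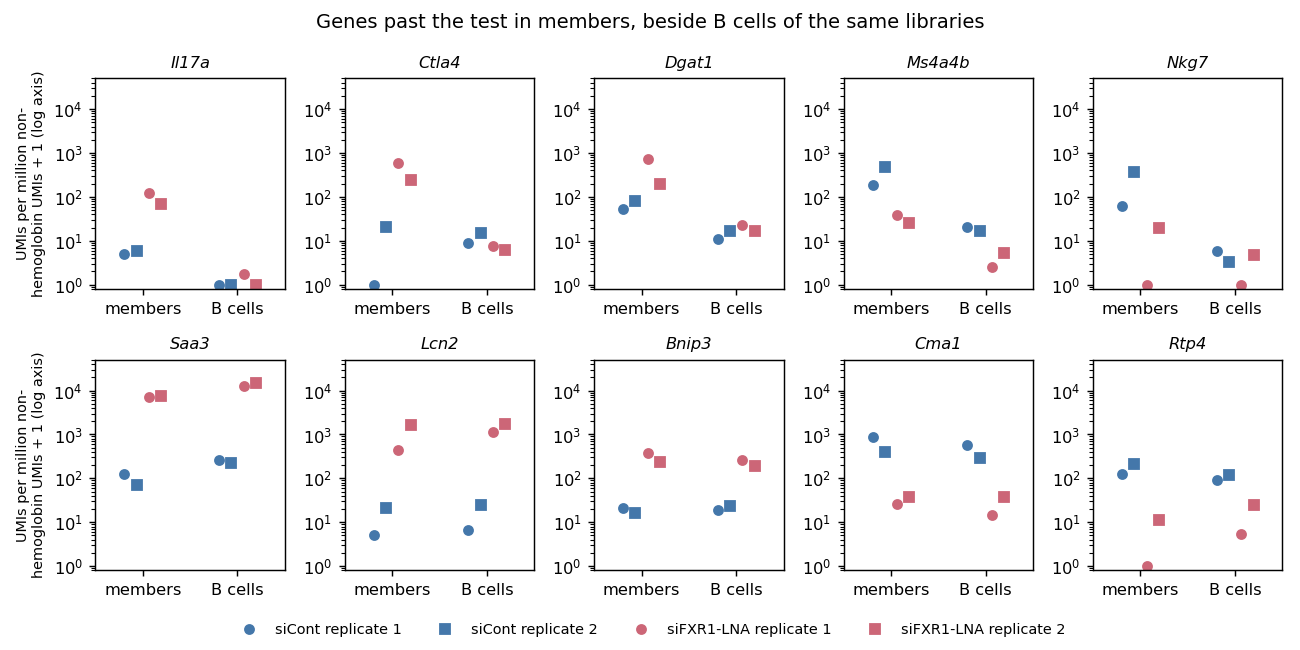
CPM plus 1 (y axis, log scale) of 10 genes past the test in members, beside B cells, with 1 point per library. Il17a, Ctla4 and Dgat1 rose in members and stayed at or under 21.5 CPM in B cells, while Saa3, Lcn2, Bnip3, Cma1 and Rtp4 took similar levels in both cell types.

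The 10 largest rises were Cxcl2, Ms4a4a, Wfdc21, Lcn2, Saa3, Mt2, Ctla4, Chil3, Hp and Slpi. Except for Ctla4, B cells of the siFXR1-LNA libraries held them at similar or higher mean levels. The acute-phase gene Saa3 was at 126 and 69.2 CPM in siCont and 7117 and 7645 CPM in siFXR1-LNA (log2 fold change 6.29 ± 0.38, edgeR adjusted p = 5.14e-08). In B cells it was at 263, 228, 12928 and 14589 CPM. Lcn2, an iron-scavenging lipocalin, was at 4.08, 19.8, 437 and 1617 CPM in members and 5.76, 23.1, 1144 and 1703 CPM in B cells (log2 fold change 6.54 ± 0.74, edgeR adjusted p = 0.000312). The neutrophil chemokine gene Cxcl2 had 0 UMIs in both siCont libraries and was at least 55.5-fold higher in siFXR1-LNA, and Ms4a4a was at least 9.34-fold higher, both against 3 counts over the group. The metallothionein gene Mt2 had 1 UMI in siCont (ratio 74.7, exact 95% interval 13.1 to 2982), as had Wfdc21 (ratio 170, exact 95% interval 30.1 to 6734). Slpi, Chil3 and Hp had log2 fold changes of 4.22, 5.07 and 4.37.

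Markers of other cells moved with the groups in these members. The granulocyte list (7 genes) summed to 48.9 and 598 CPM in siCont and 1461 and 4718 CPM in siFXR1-LNA, beside 180.1, 1282, 3369 and 3039 CPM in B cells, with 3 of its 4 tested genes (S100a8, S100a9 and Retnlg) higher. S100a8 or S100a9 was present in 11, 49, 19 and 121 members. The mast cell list (4 genes) summed to 1635 and 460.0 CPM in siCont and 12.5 and 66.7 CPM in siFXR1-LNA, beside 1149, 465, 30.4 and 58.6 CPM in B cells, with all 3 tested genes (Cpa3, Mcpt4 and Tpsb2) lower. The macrophage list (7 genes) summed to 1606, 445, 1036 and 2240 CPM, with C1qa and C1qb at 0 by the rule, and the B cell marker Cd79a was likewise at 0 by the rule. All 5 erythrocyte genes were lower, with Hbb-bs at a log2 fold change of -1.71 ± 0.21 (edgeR adjusted p = 0.000665), and Hbb-bs UMIs were present in each member. Among members without S100a8, S100a9 or Ms4a1, 13 of 2607 genes tested passed. This subset held 134, 40, 16 and 66 members in the 4 libraries and was chosen by genes of which S100a8 and S100a9 were themselves called, so its count is not on a par with 66 of 4678. The part of RNA from other cells in the changes shared with B cells was not tested.

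Genes that fell included the mast cell proteases and a group of interferon-induced genes. Cma1, a mast cell chymase, was at 872 and 406 CPM in siCont and 25 and 36.4 CPM in siFXR1-LNA (log2 fold change -4.17 ± 0.56, edgeR adjusted p = 0.000940), and Mcpt4, Cpa3 and Tpsb2 had log2 fold changes of -4.39, -4.15 and -4.03. The interferon-induced genes Rtp4, Ifi27l2a and Rnf213 fell by 4.18, 3.07 and 2.84 on the log2 scale, and the carbonic anhydrase gene Car2 fell by 2.84. Rtp4 was at 126, 213, 0 and 10.1 CPM in members and at 93.0, 118, 4.44 and 23.5 CPM in B cells. On the fixed interferon list 11 of 14 genes were tested, 2 fell (Irf7 and Bst2), 0 rose and the median log2 fold change was -1.12. Cd74 and H2-Eb1, which B cells express themselves, also fell (log2 fold changes -2.22 and -2.35).

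Il17a is on the cytokine list. No gene on the lists of IL-17-type transcription factors, receptors and signature genes passed the test, and the lists as wholes were not tested. Of 12 transcription factors 10 were tested, 0 rose, 0 fell and the median log2 fold change was -0.28. Of 15 receptors 12 were tested with 0 calls and a median of -0.37, and of 15 signature genes 13 were tested with 0 calls and a median of -0.45. The median over all 4678 genes was -0.02. At an unadjusted p under 0.05, 410 genes passed, and DESeq2 called 38. All 4 CD3 genes were tested with 0 calls and a median of -0.61. The share of members with a CD3 UMI was lowest in siFXR1-LNA replicate 1, and its part in that median was not tested. Il23r was highest in siFXR1-LNA replicate 1 and lowest in siFXR1-LNA replicate 2, which spans both siCont libraries.

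Of 13 listed genes of hypoxia and glycolysis 12 were tested, 3 rose and 0 fell, with a median log2 fold change of 1.35. The list summed to 5026, 4461, 11275 and 8488 CPM in members and to 4425, 3515, 9219 and 8543 CPM in B cells. The mitophagy gene Bnip3 was at 20.4 and 14.8 CPM in siCont and 375 and 234 CPM in siFXR1-LNA (log2 fold change 4.07 ± 0.55, edgeR adjusted p = 0.000940), beside 17.8, 22, 264 and 194 CPM in B cells. Vegfa and Egln3, both targets of hypoxia-inducible factors, rose by 4.15 and 2.43 on the log2 scale, and Vegfa was at 11.8, 8.98, 344 and 181 CPM in B cells. Gapdh was highest of the list at 1989, 1538, 4295 and 3311 CPM and did not pass (edgeR adjusted p = 0.0673). Of 15 T cell receptor and AP-1 response genes 7 were tested and Jund rose (322, 287, 1261 and 697 CPM, edgeR adjusted p = 0.0466), a call that was lost in 7 of 14 alternatives, among them RLE size factors and leaving out siCont replicate 1, siCont replicate 2 or siFXR1-LNA replicate 1. The heat shock (7 tested), proliferation (4), survival (7) and residency (6) lists gave 0 calls.

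The change in members was compared with that in CD4 and CD8 T cells of the same libraries by an interaction term, with the library as a block. Against CD4 T cells 29 of 5641 genes passed (0.514%) and against CD8 T cells 5 of 6057 (0.0825%). CD4 T cells of siFXR1-LNA numbered only 25 and 45. Ctla4 passed in both. Its log2 fold change was larger in members by 4.35 ± 0.64 than in CD4 T cells (54.6 and 99.6 CPM in siCont, 343 and 62.1 CPM in siFXR1-LNA; edgeR adjusted p = 2.71e-08) and by 4.01 ± 0.81 than in CD8 T cells (adjusted p = 0.0374). Ms4a4b passed in both, with a fall in members larger by 2.24 and 2.71 on the log2 scale. Dgat1 passed against CD4 T cells (difference 3.42 ± 0.69, edgeR adjusted p = 0.000523), which stood at 39.4, 44.8, 36.1 and 15.5 CPM. The level of Dgat1 in members was highest in siFXR1-LNA replicate 1. The interaction tests were not repeated with a library left out, so how far they rest on that library was not tested. Ero1l, a hypoxia-induced oxidase of the endoplasmic reticulum, was at 135, 198, 674 and 339.6 CPM in members and at 33.4, 31.5, 559 and 233 CPM in CD4 T cells. Its log2 fold change in members minus that in CD4 T cells was -1.95 ± 0.41 (edgeR adjusted p = 0.00103). Il17a had 0 UMIs in CD4 and CD8 T cells, so its interaction had no usable estimate (edgeR adjusted p = 1 in both).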

How the data were processed

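Ascites cells of 4 libraries were profiled by droplet 3′ single-cell RNA-seq. Per the labels, the authors made gene by barcode matrices of raw UMI counts with Cell Ranger 7.0.0 on mm10 (submitters' processing notes), and these counts were used as deposited. Of 32285 features, 99.6% matched GENCODE vM21 by identifier. No doublet caller was run, and the limit of 4800 genes and the exclusion genes were the only guard. Whether pooled libraries of a group came from separate mice in all cases is not given, so p-values may measure technical spread.

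Members and gene lists were chosen with earlier results of these data known. UMIs of members were summed per library and tested with edgeR 4.0.16 (R 4.3.3; filterByExpr, TMM, quasi-likelihood test, Benjamini-Hochberg adjusted p of 0.05). Differences between cell types used library and cell type as terms with an interaction. DESeq2 1.42.0 was an alternative. Levels used non-hemoglobin UMIs. Shares used exact permutation and Clopper-Pearson intervals (SciPy 1.17.1), which, like the limit of 3 counts for a count of 0, cover counting error only. V exons were aligned with Biopython 1.88 (Python 3.11.15). On simulated counts, the test of members called 17.5%, 61.5% and 95.5% of genes changed 2-, 4- and 8-fold (4174 genes tested), and 5 unchanged genes. The interaction tests called 7.69% (CD4) and 6.35% (CD8) of genes changed 2-fold. All genes were drawn with a common dispersion and, unless changed, the same mean level in each library. These shares may therefore not hold for these data. Named genes were those of each list past the test or with the highest CPM (up to 4), the 10 largest rises and falls past the test, and the 15 genes with the highest ratio of members to CD4 or CD8 T cells. Others, among them genes with low levels in B cells, were named after their values were seen. Values of some listed genes are not reported here.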

Additional observations from a re-analysis of the deposited data

Results flagged for a closer look

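The difference in response between members and other T cells of the same libraries was itself tested, and 29 genes against CD4 T cells and 5 genes against CD8 T cells passed (edgeR, interaction term). Values below are the log2 fold change in members minus that in the other cell type. CD4 T cells numbered only 25 and 45 in the siFXR1-LNA libraries, and no interaction was fitted with a library left out.

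Against CD4 T cells, differences above 0 were found for Ctla4 (4.35), the galectin gene Lgals3 (2.49), the survival genes Bcl2a1d (3.70) and Bcl2a1b (1.63), Dgat1 (3.42), the interferon-induced gene Isg15 (4.10), the transcription factor gene Bhlhe40 (1.89) and Cybb (2.63), an oxidase subunit of phagocytes. B cells held Cybb at 284 to 407 CPM, above the 14.8 to 113 CPM of members. Bcl2a1d was at 147, 69.2, 187 and 208 CPM in members and at 124, 97.1, 0 and 23.3 CPM in CD4 T cells. Isg15 was lower in siFXR1-LNA in both cell types. It was at 395, 297, 225 and 14.15 CPM in members and at 398, 458, 0 and 7.76 CPM in CD4 T cells. The member value of siFXR1-LNA replicate 1 rested on 18 UMIs in 3 cells.

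Differences below 0 were found for the survival gene Bcl2 (-2.10), Ms4a4b (-2.24), Ero1l (-1.95), the chemokine gene Ccl5 (-1.66), the transcription factor gene Tcf7 (-2.34) and Nkg7 (-2.59). Bcl2 was at 204, 712, 287 and 99.0 CPM in members and at 328, 737, 901 and 761 CPM in CD4 T cells. The chemokine receptor gene Ccr7 (-8.26) had 0 UMIs in members of both siFXR1-LNA libraries and Ccl4 (-7.39) in 1 of them, so their fitted values depend on the prior count. They also rest on few cells, since 23 of 30 Ccr7 UMIs lay in 2 members of siCont replicate 1 and 12 of 17 Ccl4 UMIs in 1 member of siCont replicate 2.

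Against CD8 T cells the genes were Ms4a4b (-2.71), Ero1l (-2.32), Irak3 (-4.80), Ctla4 (4.01) and Ccr7 (-7.36). Irak3, a brake on receptor signaling, was at 0, 0.955, 44.3 and 57.4 CPM in CD8 T cells and at 81.5, 94.0, 137 and 159.7 CPM in members.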

How the results depend on the processing

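The 66 genes called in members became 38 with DESeq2, 144 with no filter on low counts, 34 at a rule sum of at least 5 UMIs and 13 among members without S100a8, S100a9 or Ms4a1, an alternative chosen after seeing the data that tested 2607 genes in fewer cells. Leaving out 1 library gave 93 to 151 genes (151 without siCont replicate 1, 93 without siCont replicate 2, 118 and 142 without siFXR1-LNA replicates 1 and 2). The spread then comes from the remaining pair alone, and the lone library is assumed to vary like it. Whether the replicate numbers pair the libraries could not be decided. The correlation of deviations between libraries of the same number was 0.161. With 2 libraries a group the deviations mirror each other, so this is 1 value and shows neither pairing nor its absence. The fit with the replicate block called 185 genes. Other settings gave 61 to 69 genes. Of the 66 genes, 11 stayed past the threshold in every alternative that gave a value, 55 were lost in at least 1 of 14 and 0 reversed. Among the 14, the alternative that left out barcodes shared by members of 2 libraries was identical to the main fit, since no such barcode existed. With RLE size factors 3 genes passed against CD8 T cells. The difference in the share of members, -0.223 percentage points, was 0.129 at 1000 genes or more and ranged from -0.796 to 0.350 when 1 library was left out, and the difference after thinning was 0.0215 at 2000 UMIs. The cause was not tested. Leaving out members with any S100a8, S100a9, Lyz2, Ms4a1, Hbb-bs or Hba-a1 UMI gave no value, since each member held Hbb-bs. With 2 pooled libraries a group and 35 members in siFXR1-LNA replicate 1, precision is limited.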

Other observations

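Some cytotoxic transcripts in members of siCont replicate 2 lay in few cells. All 34 UMIs of Gzma, a granzyme gene, were in 1 of its 90 members, and the other libraries had 0. Klrd1, an NK cell receptor gene, had 25 UMIs in 7 members there, and the chemokine gene Ccl5 had 336 UMIs in 11 members. The cell cycle genes Mki67 and Top2a each had a UMI in 29 of 460 members (6.30%), beside 7.50% and 9.25% of B cells, and no cycling was read from these shares.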
